A study of Mus musculus with 2 samples.

Results

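Lipid handling was followed through 46 genes of fatty acid uptake, activation, oxidation, synthesis, storage, their nuclear regulators and sterol synthesis. All 46 were found by symbol among the 32285 genes of the count matrices, and 41 reached the 10 unique molecular identifiers (UMIs, each standing for 1 captured RNA molecule) over both libraries that were required for a ratio. The study sorted live CD8 T cells, gated as CD45+ TCRB+ CD8a+, from the 4th mammary fat pad of untreated C57BL/6 mice. Cells of multiparous mice made 1 library and cells of virgin mice the other, each from a pool of 5 or more animals, on a 5′ single-cell platform. The sources used here give neither the ages of the mice nor the time since the last litter. Because a group is 1 library, parity cannot be told apart from pool, sort or library preparation, and no test between groups was possible.

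A T cell takes up fatty acids through carriers such as CD36 and intracellular binding proteins, and acyl-CoA synthetases trap them as acyl-CoA. The acyl chain then enters mitochondria through the carnitine shuttle to be oxidised, is esterified into triglyceride and kept in lipid droplets, or is built into membranes. Naive and memory CD8 T cells are known for a quiet, oxidative metabolism, dividing cells for lipid and sterol synthesis, and tissue-resident memory cells in fat-rich sites for their use of exogenous lipid.

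The parous library held 4927 barcodes with 14676415 UMIs and the virgin library 2526 barcodes with 20166425 UMIs. After the cell filter and the removal of a small cluster of other cells, 2972 parous and 2492 virgin cells with at least 1 Cd3d, Cd3e or Cd3g UMI were used, with medians of 4115.5 and 7008 UMIs. The filter left out 1908 parous but 15 virgin barcodes, and 13 of the 18 barcodes present in both libraries were among the cells used. Of the barcodes left out, 1567 parous and 5 virgin ones had a Cd3 UMI. No alternative setting below brought them back into the ratios. The 7 T cell markers, Cd8a and Cd8b1 included, were all detected and summed to 5139 CPM (UMIs of a gene per 1000000 UMIs of the same cells) for parous and 4980 CPM for virgin mice. Levels below are CPM over the summed cells, and log2 ratios are parous over virgin with 0.5 added to each count. Every interval is an exact 95% interval that covers counting error only, not the spread between mice, and a share of 0 is given the limit that 3 counts would reach.

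Of the 41 measured members, 5 were at least 1.5-fold higher in the parous library (Cd36, Fabp4, Acsl1, Acsl3 and Dgat1), against 8.50% of the 13679 genes measured. A further 3 were at least 1.5-fold lower (Cpt1a, Cpt2 and Sqle), against 16.8% of all genes, and 33 lay in between. The share of members 1.5-fold apart in either direction, 8 of 41, was below the 25.3% over all genes. The median log2 ratio of the members was -0.15, the same as that of all genes at 2 decimals. Summed, all 46 members came to 1225 CPM (parous) and 1312 CPM (virgin). As a group the members therefore did not stand apart from other genes, and the values below describe single genes and steps of the pathway.

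**Figure D1:**
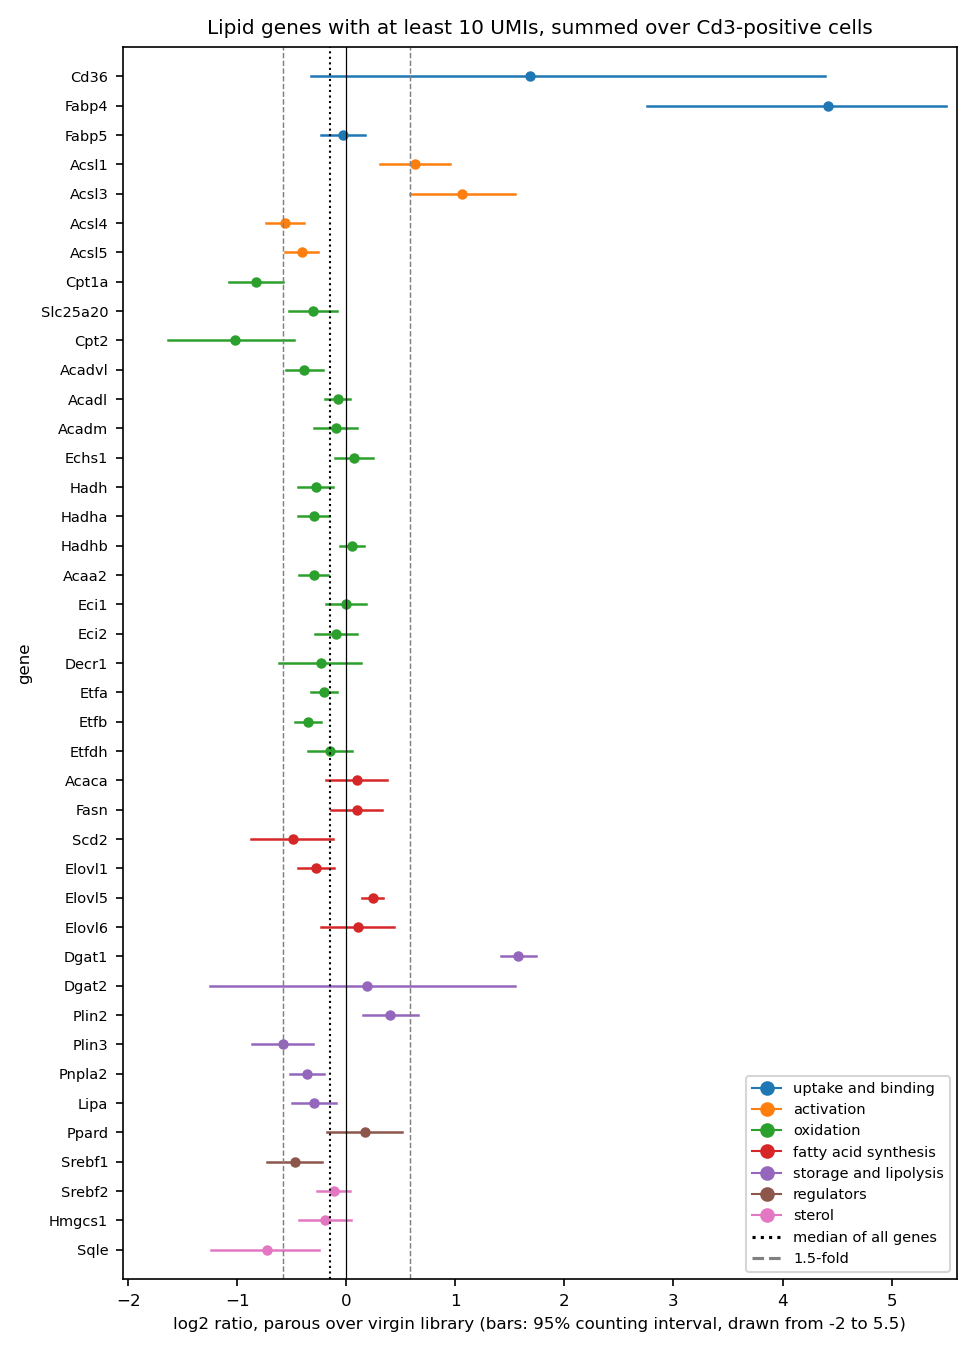
Log2 ratio of parous over virgin (x axis) for the 41 measured lipid genes (y axis), coloured by their step in the pathway. Bars are 95% counting intervals, dashed lines mark 1.5-fold and the dotted line the median of all genes (-0.15). Dgat1 at 1.57 lies apart with a narrow interval, Fabp4 and Cd36 have wide intervals, and 15 of 17 oxidation genes lie below 0.

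Uptake and binding genes were sparse except for 1. Cd36, a fatty acid translocase of the plasma membrane, had 7 parous and 3 virgin UMIs, a log2 ratio of 1.69 whose interval, -0.32 to 4.39, includes no difference. Lpl, the lipoprotein lipase that frees fatty acids from circulating triglyceride, had 3 UMIs and 1 UMI, and Vldlr, a lipoprotein receptor, had 0 and 1. The place of Cd36 among the 5 higher members rests on these 10 UMIs, and Lpl and Vldlr were counted too thinly for a ratio. Fabp5, the epidermal fatty acid binding protein found in many activated T cells, was plainly detected, at 25.3 CPM (335 UMIs) and 25.8 CPM (513 UMIs). Its log2 ratio was -0.03 (-0.23 to 0.17), but 0.60 without the cycling-like cells, which are more frequent among virgin cells and hold the highest Fabp5 level.

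Fabp4, the adipocyte fatty acid binding protein, gave the highest ratio and the least even one. It had 35 parous UMIs in 32 cells and 2 virgin UMIs in 2 cells, a log2 ratio of 4.41 (2.76 to 7.82). Of the 35 UMIs, 25 lay in 22 cells of cluster 8, a cluster of low RNA content (medians of 1263 parous and 3210 virgin UMIs) without a cell type name. The other 10 parous UMIs were spread over 10 cells outside it, and without cluster 8 the log2 ratio was 2.66. After each cell was thinned to 1400 UMIs, a Fabp4 UMI was found in 14 of the 52 parous cells of cluster 8 deep enough for this (26.9%, 15.6 to 41.0%) and in 0 of 63 virgin ones, which allows a share of up to 4.76% (3 of 63). Across all thinned cells the shares were 0.561% and 0.0403%. Markers of fat cells moved with it. The 8 adipocyte markers summed to 22 UMIs in the parous cells, 17 of them in cluster 8 and 13 of those from Car3, against 4 UMIs in the virgin cells. In the parous cells 5 of the 8 were detected, Car3 with 15 UMIs, Cfd with 4 and Plin1, Cidec and Retn with 1 each, while Adipoq, Lep and Acvr1c were at 0. In cluster 8, 5 of the 22 Fabp4-positive cells also had an adipocyte marker UMI. The barcodes left out by the filter held 69 parous and 24 virgin Fabp4 UMIs. Before the Cd3 requirement, 74.7% of cluster 8 cells had a Cd3e UMI, against 96.5 to 100% in the other clusters used. At clustering resolution 0.5, and with lipid genes kept, a Fabp4-led cluster was instead called other cells. It had 5 macrophage or dendritic markers raised, in 172 parous and 36 virgin cells and in 171 and 35. Cluster 8 had 0 raised, and a Fabp4-led cluster built without thinning stayed unnamed. The overlap of these clusters with cluster 8 was not tested. The parts of fat cell and macrophage or dendritic cell RNA in the Fabp4 ratio were not tested.

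Among the 4 acyl-CoA synthetase genes, which activate long-chain fatty acids for every later step, Acsl1 and Acsl3 were higher in parous cells and Acsl4 and Acsl5 lower. Acsl1 was at 12.8 CPM (169 parous UMIs) and 8.25 CPM (164 virgin UMIs), a log2 ratio of 0.63 (0.31 to 0.95). With both libraries given the same mix of clusters that ratio was 0.18, below 1.5-fold. That mix takes clusters with at least 20 cells in each library. It therefore leaves out cluster 5, which had 3 virgin cells, and takes cluster 3 with 21 virgin cells. Acsl3, an isoform of the endoplasmic reticulum and lipid droplets, was at 6.72 CPM (89 UMIs) and 3.22 CPM (64 UMIs), a log2 ratio of 1.06 (0.58 to 1.55). Acsl4, which prefers arachidonate, was at 29.98 and 44.3 CPM (-0.56, -0.74 to -0.39). Acsl5, found on mitochondria and the endoplasmic reticulum, was at 39.2 and 52.1 CPM (-0.41, -0.57 to -0.26). The intervals of the first pair lie above 0 and those of the second pair below it. Acsl3 (chromosome 1, 78657825 to 78707743, plus strand, GRCm38) contains Utp14b on the same strand, which had 15 and 26 UMIs, so some reads of the 2 genes may not be told apart. Acsl5 overlaps Zdhhc6 on the opposite strand, which had 177 parous and 374 virgin UMIs.

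The acetyl-CoA producing side of the pathway had slightly lower ratios as a group than all genes. Of 17 oxidation members, 15 had a log2 ratio below 0, none passed 1.5-fold upward and 2 did so downward. Their median was -0.23, against -0.15 for all genes, of which 35.2% lay above 0. Their sum was 655 CPM in parous and 751 CPM in virgin cells. The 2 past 1.5-fold, Cpt1a and Cpt2, belong to the carnitine shuttle. Cpt1a, the outer-membrane carnitine palmitoyltransferase that limits the rate of long-chain oxidation, was at 13.97 CPM (185 UMIs in 165 cells) in the parous library and 24.8 CPM (493 UMIs in 375 cells) in the virgin library. The log2 ratio was -0.82 (-1.08 to -0.58), or 1.77-fold lower in parous cells. Slc25a20, the carnitine-acylcarnitine carrier of the inner membrane, was at 19.7 and 24.4 CPM (-0.31, -0.53 to -0.09). Cpt2, which rebuilds acyl-CoA in the matrix, was at 2.64 CPM (35 UMIs) and 5.43 CPM (108 UMIs), a log2 ratio of -1.03 (-1.63 to -0.48). At 1400 UMIs per cell, however, the share of cells with a Cpt2 UMI was 0.456% (parous) and 0.444% (virgin), and its log2 ratio was -0.09, below 1.5-fold. For Cpt1a these shares were 1.54% (1.12 to 2.06%) and 2.86% (2.24 to 3.60%).

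The promoters of the shuttle genes are shown because these 3 consecutive steps all had intervals below 0. That of Slc25a20 includes the median of all genes (-0.15). Each is the 250 bases before the RefSeq start (GRCm38.p6), 5′ to 3′ on the gene's strand: Cpt1a at chr19:3323051-3323300 (plus strand), Slc25a20 at chr9:108661886-108662135 (plus) and Cpt2 at chr4:107923590-107923839 (minus). Capitals mark the GC box GGGCGG and the CCAAT box on either strand.
Cpt1a: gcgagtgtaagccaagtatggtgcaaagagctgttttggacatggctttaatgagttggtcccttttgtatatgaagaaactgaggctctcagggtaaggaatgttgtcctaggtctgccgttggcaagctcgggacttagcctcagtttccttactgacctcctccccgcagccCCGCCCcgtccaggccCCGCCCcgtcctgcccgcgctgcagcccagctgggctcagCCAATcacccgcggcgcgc
Slc25a20: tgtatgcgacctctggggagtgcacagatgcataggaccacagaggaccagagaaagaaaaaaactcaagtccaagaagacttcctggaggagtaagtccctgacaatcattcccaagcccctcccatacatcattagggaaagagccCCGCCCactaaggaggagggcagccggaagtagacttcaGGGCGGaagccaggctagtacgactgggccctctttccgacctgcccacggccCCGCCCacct
Cpt2: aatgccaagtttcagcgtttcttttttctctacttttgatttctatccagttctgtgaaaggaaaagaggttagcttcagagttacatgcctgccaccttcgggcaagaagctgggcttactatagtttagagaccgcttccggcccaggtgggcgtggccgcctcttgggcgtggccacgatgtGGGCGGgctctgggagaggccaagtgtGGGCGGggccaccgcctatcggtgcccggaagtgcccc
The 3 promoters hold 2, 3 and 2 GC boxes, which 32.7% of all 32851 promoters in the table and 24 of the 36 member promoters have. Cpt1a also holds a CCAAT box, which 33.8% of all and 22 of the 36 have.

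The acyl-CoA dehydrogenases and the enzymes of the beta-oxidation spiral were closer to 0. Acadl, the long-chain dehydrogenase, was at 72.4 and 76.6 CPM (-0.08, -0.20 to 0.04). Acadm, its medium-chain counterpart, was at 26.1 and 27.9 CPM (-0.10, -0.30 to 0.10). Neither differed beyond counting error. Hadha, the alpha subunit of the mitochondrial trifunctional protein, was lower in parous cells at 48.6 and 59.8 CPM (-0.30, -0.44 to -0.16), while its partner subunit Hadhb was not (84.0 and 81.0 CPM; 0.05, -0.06 to 0.16). The thiolase Acaa2 (-0.30), the very-long-chain dehydrogenase Acadvl (-0.38) and Etfb (-0.35), a subunit of the flavoprotein that carries electrons to the respiratory chain, also had intervals below 0, as did Hadh (-0.28) and Etfa (-0.21). The intervals of Hadh and Etfa include the median of all genes (-0.15). The remaining oxidation members lay between -0.23 and 0.07. Acadvl, Echs1 and Etfdh each overlap a counted gene on the opposite strand, and the sources used here do not say whether counting used the strand.

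Of the 6 measured members of fatty acid synthesis none was 1.5-fold apart. Their median was 0.10, against -0.15 for all genes, and 4 of the 6 lay above 0. Acaca, the acetyl-CoA carboxylase that makes malonyl-CoA, was at 14.1 and 13.2 CPM (0.10, -0.18 to 0.37). Fasn, the fatty acid synthase, was at 19.5 and 18.3 CPM (0.09, -0.14 to 0.33). Both intervals include 0 and exclude 1.5-fold. Of the desaturases, Scd1 had 0 UMIs in either library and Scd2 was at 6.57 and 9.25 CPM (-0.49, -0.88 to -0.12). Elovl5, which elongates polyunsaturated chains, was at 114 CPM (1512 UMIs) and 96.6 CPM (1920 UMIs), a log2 ratio of 0.24 (0.14 to 0.34). Elovl1, for very long chains, was lower at 35.4 and 43.1 CPM (-0.28, -0.45 to -0.12), and Elovl6 did not differ beyond counting error (0.11, -0.23 to 0.44). The intervals of Scd2 and Elovl1 include the median of all genes (-0.15). Elovl1 overlaps the cell cycle gene Cdc20 on the opposite strand, which was at 5.97 and 19.2 CPM in the same cells.

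Storage held the best supported difference of all members. Dgat1 (chromosome 15, 76502015 to 76511953, minus strand, GRCm38), an enzyme of the last step of triglyceride synthesis, was at 71.4 CPM (946 UMIs in 640 cells) in the parous library and 24.0 CPM (477 UMIs in 353 cells) in the virgin library. This is a 2.98-fold difference (2.67 to 3.33), or 1.57 on the log2 scale (1.41 to 1.74). The 5 cells richest in Dgat1 gave 3.28% of its parous and 6.29% of its virgin UMIs, so the counts were spread over many cells. With each cell thinned to 1400 UMIs, 8.90% (7.88 to 10.0%) of 2853 parous and 3.31% (2.64 to 4.09%) of 2480 virgin cells had a Dgat1 UMI. Without clusters 3 and 5, which were nearly all parous, the log2 ratio was 1.11. With the same mix of clusters, which leaves out cluster 5, it was 1.10. No counted gene overlaps Dgat1, and its level in the excluded other cells was 17.6 CPM (3 parous UMIs) and 4.77 CPM (1 virgin UMI).

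The remaining storage genes differed less. Dgat2, an unrelated enzyme of the same reaction, had 9 and 12 UMIs (0.19, -1.25 to 1.54). Plin2, which coats lipid droplets, was at 18.7 and 14.2 CPM (0.40, 0.15 to 0.65), but its log2 ratio was 0.03 with the same mix of clusters. Plin3, a droplet coat protein that also occurs free in the cytosol, was at 11.6 and 17.3 CPM (-0.58, -0.87 to -0.30), just inside 1.5-fold. The lipases were lower by less: Pnpla2, which starts the breakdown of droplet triglyceride, was at 40.2 and 51.6 CPM (-0.36), and Lipa, the lysosomal acid lipase, at 23.3 and 28.6 CPM (-0.30). The interval of Lipa includes the median of all genes (-0.15).

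Of the nuclear receptors that switch fatty acid genes, Ppara had 0 and 2 UMIs and Pparg 2 and 3, too few for a ratio. Ppard, the isoform detected, was at 9.44 and 8.40 CPM (0.17, -0.18 to 0.51). Srebf1, which encodes the factor that drives fatty acid synthesis genes, was lower at 14.4 and 20.01 CPM (-0.47, -0.73 to -0.22). It overlaps Rai1 on the opposite strand, which had 273 parous and 494 virgin UMIs. In the sterol group, Srebf2, the matching factor for cholesterol genes, was at 41.8 and 45.3 CPM (-0.12, -0.27 to 0.04). Hmgcs1, the synthase ahead of HMG-CoA reductase, was at 17.9 and 20.5 CPM (-0.19, -0.43 to 0.04). Sqle, which makes squalene epoxide, was at 3.78 CPM (50 UMIs) and 6.29 CPM (125 UMIs), a log2 ratio of -0.73 (-1.24 to -0.25). Of these 3 sterol genes, the Sqle interval alone excludes 0, and without the cycling-like cells its ratio was -0.33, below 1.5-fold.

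The other genes of the pathway, a list of 103 of which 89 were measured, had 7 past 1.5-fold upward and 6 downward, against 8.50% and 16.8% of all genes, and a median of -0.07. By list, 2 of 23 genes of sterol synthesis and uptake were higher and 1 lower (median 0.01), and 0 of 7 genes of sterol efflux and storage moved (0.03). None of 5 genes of fatty acid transport moved (-0.20), 2 of 18 further oxidation genes were higher and 2 lower (-0.06), and 1 of 12 further synthesis genes was lower (-0.08). Of 16 further storage genes, 3 were higher and 2 lower (-0.04), and 0 of 8 targets and partners of the peroxisome proliferator receptors moved (-0.15). Hilpda, an inhibitor of the lipase Pnpla2 induced by low oxygen and fatty acids, had the highest ratio among those with at least 30 UMIs. It was at 135 CPM (1781 UMIs) and 53.1 CPM (1056 UMIs), a log2 ratio of 1.34 (1.23 to 1.45). Unlike the Dgat1 value, this fell below 1.5-fold with the same mix of clusters, at 0.29. That mix leaves out cluster 5, where parous Hilpda was at 350 CPM. The next were 3 genes of the sterol pathway: Cyp51, a sterol demethylase, at 38.0 and 24.6 CPM (0.62), Mvk, mevalonate kinase, at 15.3 and 10.1 CPM (0.59), and Insig1, a brake on sterol synthesis, at 29.7 and 20.6 CPM (0.53). At the low end stood Acad10 (3.02 and 5.78 CPM; -0.93) and Mlycd (5.82 and 10.0 CPM; -0.78), which encodes the decarboxylase that removes malonyl-CoA, the inhibitor of the Cpt1a product. Oxsm, of mitochondrial fatty acid synthesis (2.42 and 4.12 CPM, -0.76), and Lipe, hormone-sensitive lipase (2.42 and 3.97 CPM, -0.70), completed it. With cells thinned to 1400 UMIs, Acad10 was at -0.36 and Mvk at 0.33. With the same mix of clusters, Lipe was at -0.41 and Cyp51 at 0.50. All of these values are below 1.5-fold, while Mlycd and Oxsm stayed past it in all 14 alternative settings.

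Clusters of cell states were built without any lipid gene, so no member took part in defining them. They come from other genes of the same cells, so member levels over them are a description and not independent support. Cluster 0 was naive or central memory-like (482 parous and 978 virgin cells), cluster 2 NK or innate-like T-like (336 and 196), cluster 4 Gzmk or exhausted-like (189 and 302), cluster 6 circulating effector-like (81 and 170), cluster 9 cycling-like (64 and 152) and cluster 10 interferon-responding-like (35 and 65). Clusters 3 (488 and 21) and 7 (134 and 114) were tissue-resident memory-like. Cluster 3 had 8 residency markers raised but also 6 Gzmk or exhausted markers. Cluster 7 had 7 residency markers raised, with 2 virtual memory and 2 CD4 T markers. Cluster 5 (319 and 3) stayed unnamed because its 10 leading genes held 2 NK or innate-like markers, Fcer1g and Tyrobp, and no residency marker. Raised in it were 10 residency markers and 9 NK or innate-like markers. Clusters 1 (703 and 426) and 8 (141 and 65) also stayed unnamed. Clusters 3 and 5 came almost wholly from the parous library, and so may be that library rather than a type.

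Dgat1 followed both library and state. In the virgin library it was lowest in the naive-like cluster 0, at 14.3 CPM (11.7 to 17.3), and highest, among clusters of at least 50 cells, in the resident-like cluster 7, at 47.2 CPM (32.5 to 66.3). In the parous library it was again lowest in cluster 0, at 34.3 CPM (27.0 to 42.8), and reached 201 CPM (178 to 227) in cluster 5. That cluster gave 28.2% of the parous Dgat1 UMIs and 10.0% of all UMIs, and its level was 3.53-fold (3.05 to 4.07) that of the other parous cells. Next in order were clusters 7 (92.5 CPM), 3 (87.1 CPM) and 6 (85.8 CPM), whose intervals overlap. In the thinned cells a Dgat1 UMI was found in 21.1% (16.7 to 26.0%) of cluster 5 and 4.403% (2.75 to 6.65%) of cluster 0 in the parous library.

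Within clusters the Dgat1 difference kept its direction. Among the 5 clusters with at least 100 cells in each library, its log2 ratio was 1.26 in cluster 0, 0.92 in cluster 1, 0.86 in cluster 2, 0.66 in cluster 4 and 0.96 in cluster 7. All 5 were past 1.5-fold, a call that 6.19%, 5.21%, 6.33%, 9.09% and 12.9% of the genes measured in those clusters met in that direction. The interval in cluster 4, -0.10 to 1.38, includes 0, and the other 4 do not. At clustering resolution 1.2, naive-like cells fell mainly into clusters of 59 parous and 723 virgin cells and of 399 and 151. The ratios in cluster 0 may therefore compare unlike cells, which was not tested. Of the members measured in all 5 clusters, Dgat1 was the only one past 1.5-fold on the same side in each.

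Cpt1a was lower in parous cells of the same 5 clusters, with log2 ratios of -1.01, -1.28, -0.64, -1.93 and -0.50 in clusters 0, 1, 2, 4 and 7. The first 4 were past 1.5-fold, as were 18.9%, 17.3%, 19.0% and 18.6% of all genes in the lower direction there, and 22.0% in cluster 7. In cluster 4 the levels were 9.74 CPM (7 UMIs) and 39.4 CPM (65 UMIs), the widest gap. The intervals in clusters 2 and 7 include 0. Among virgin clusters of at least 50 cells Cpt1a was lowest in cluster 0, at 11.1 CPM (8.85 to 13.8), and low there in the parous library too, at 5.34 CPM (2.76 to 9.33). In parous cluster 5, where Dgat1 peaked, Cpt1a was at 23.3 CPM (15.9 to 33.1), above the 13.97 CPM of all parous cells.

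**Figure D2:**
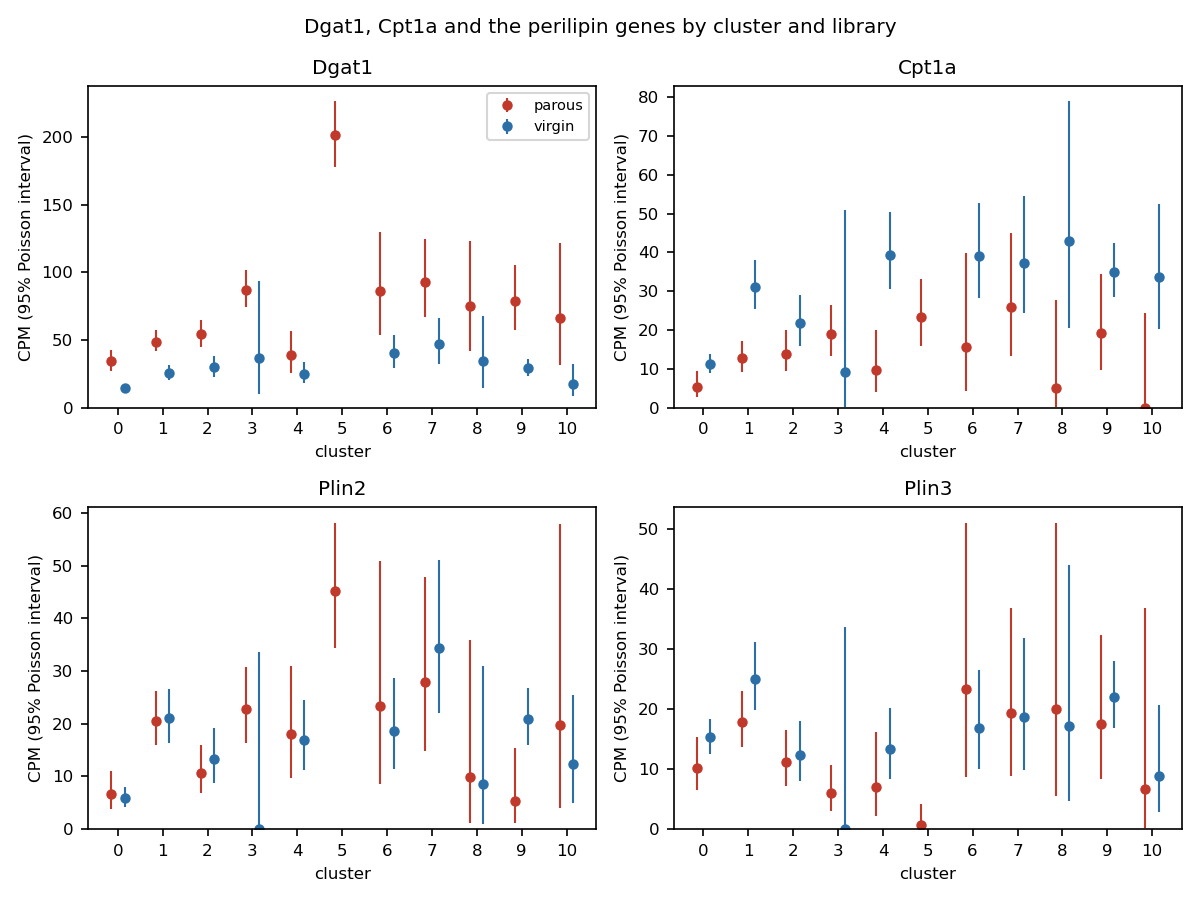
CPM (y axes) of Dgat1, Cpt1a, Plin2 and Plin3 in the 11 clusters (x axes) for the parous (red) and virgin (blue) library, with 95% Poisson intervals, where a cluster had at least 20 cells of that library. Parous Dgat1 exceeds virgin Dgat1 in the 10 clusters where both are shown and peaks at 201 CPM in cluster 5, where Plin2 is at 45.2 CPM and Plin3 at 0.753 CPM.

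Cluster 5 differed from the other parous cells in some of its storage genes, Dgat1 above all. The 6 storage members summed to 338 CPM there, 201 CPM of it from Dgat1, and to between 121 and 207 CPM in the other 10 parous clusters. Plin2 was at 45.2 CPM (60 UMIs, 34.5 to 58.2) in cluster 5, 2.88-fold (2.10 to 3.85) the other parous cells. Hilpda was at 350 CPM, but also at 273 CPM in parous cluster 3 and 191 CPM in parous clusters 6 and 7. Plin3 was nearly absent, with 1 UMI (0.753 CPM, 0.0191 to 4.20) where the other parous cells were at 12.8 CPM. Elovl5 was also highest there, at 218 CPM (194 to 245), against 142 CPM (110 to 181) in cluster 7, the next. The virgin library had 3 cells in this cluster, so no parous-to-virgin comparison was possible in it.

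The summed level of the oxidation genes had the same lowest and highest state in both libraries. Among clusters of at least 50 cells the sum was lowest in the naive-like cluster 0, at 476 CPM parous and 572 CPM virgin, and highest in the cycling-like cluster 9, at 888 and 1063 CPM. Acadl was at 30.3 and 45.7 CPM in cluster 0 and at 147 and 135 CPM in cluster 9, with 107 and 118 CPM in the Gzmk or exhausted-like cluster 4. Etfb was at 32.9 and 41.0 CPM in cluster 0 and at 151 and 186 CPM in cluster 9. Of the oxidation members with at least 100 UMIs in each library, Acadl and Etfb alone had both extremes in these clusters in both libraries. Hadh, the short-chain 3-hydroxyacyl-CoA dehydrogenase, for example, was highest in cluster 7, at 77.4 and 71.6 CPM. Within the 5 compared clusters none of the 17 oxidation members was 1.5-fold higher in parous cells. Those 1.5-fold lower numbered 4 in clusters 0, 1 and 4 and 3 in clusters 2 and 7, where 16 were measured in cluster 7. These are shares near those of all genes, 18.9%, 17.3%, 18.6%, 19.0% and 22.0% in clusters 0, 1, 4, 2 and 7. Their medians were -0.30, -0.31, -0.32, -0.14 and -0.30 in clusters 0, 1, 2, 4 and 7, against -0.14, -0.17, -0.17, -0.10 and -0.10 for all genes. Slc25a20 was below 0 in all 5 clusters and past 1.5-fold in 3 of them.

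Of 33 members with at least 100 UMIs in each library, 15 had their highest level in the same cluster in both libraries, among the 8 clusters with at least 50 cells of each, and 11 their lowest. The naive-like cluster 0 was the lowest for 13 parous and 10 virgin profiles, and cycling-like cluster 9 the highest for 9 and 8. Some of the other extremes fall in cluster 8, where the small number of UMIs makes levels imprecise.

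**Figure D3:**
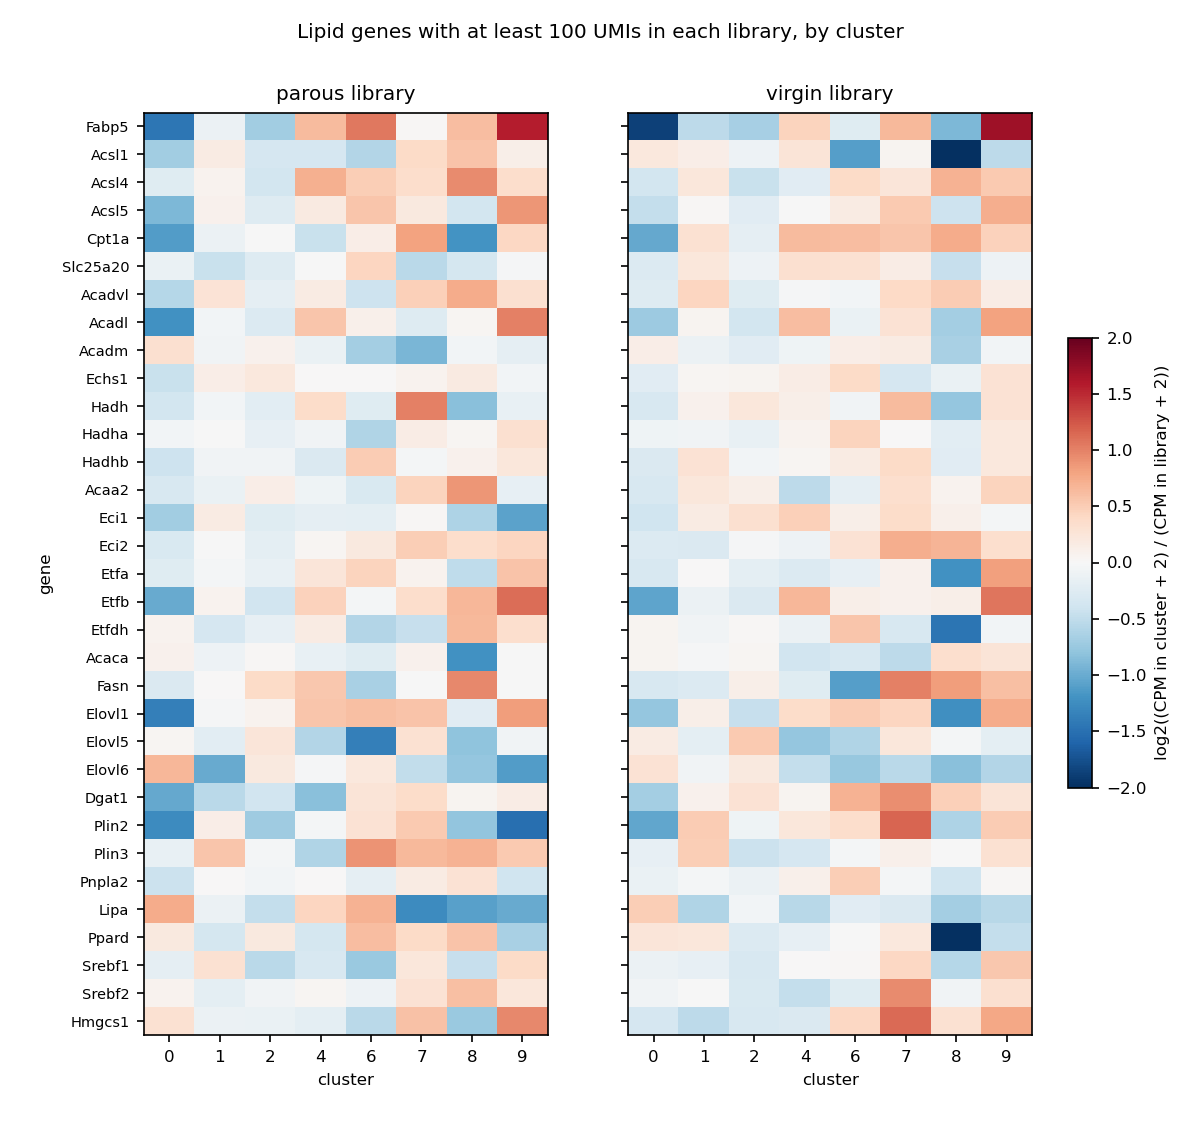
Level of 33 members (rows) in 8 clusters (columns) of the parous (left) and virgin (right) library, as log2 of CPM in the cluster over CPM in the library, with 2 CPM added to each. Blue runs down the naive-like cluster 0 for Fabp5, Acadl, Etfb and Elovl1 in both panels, where Lipa and Elovl6 are red, and the cycling-like cluster 9 is red for Fabp5 and Etfb.

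Some further members had uneven levels over the clusters. Acsl3 was concentrated in clusters 0 and 2, at 15.6 and 7.15 CPM (35 and 52 UMIs) in cluster 0 and 17.2 and 2.36 CPM (37 and 5 UMIs) in cluster 2 for parous and virgin. It was at 1.21 and 0.927 CPM in cluster 1 and had 0 UMIs in cluster 3. Its log2 ratio was 1.13 (0.46 to 1.77) in cluster 0 and 2.74 (1.51 to 4.57) in cluster 2. Utp14b, inside it, was at 2.67 and 2.75 CPM in cluster 0 and 0.928 and 1.89 CPM in cluster 2, without such a gap. Lipa was highest in the naive-like cluster among those with at least 100 cells of each library, at 40.1 and 41.0 CPM, and Elovl6 in that cluster was at 16.9 and 11.7 CPM. Fabp5 was the reverse, at 8.01 and 5.64 CPM in cluster 0 and at 79.0 and 88.2 CPM in cluster 9, an order also seen for Acadl and Etfb. Elovl1 was at 12.5 and 24.2 CPM in cluster 0 and 64.9 and 73.1 CPM in cluster 9, but Cdc20, on the other strand, was at 73.7 and 113 CPM in cluster 9.

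**Figure D4:**
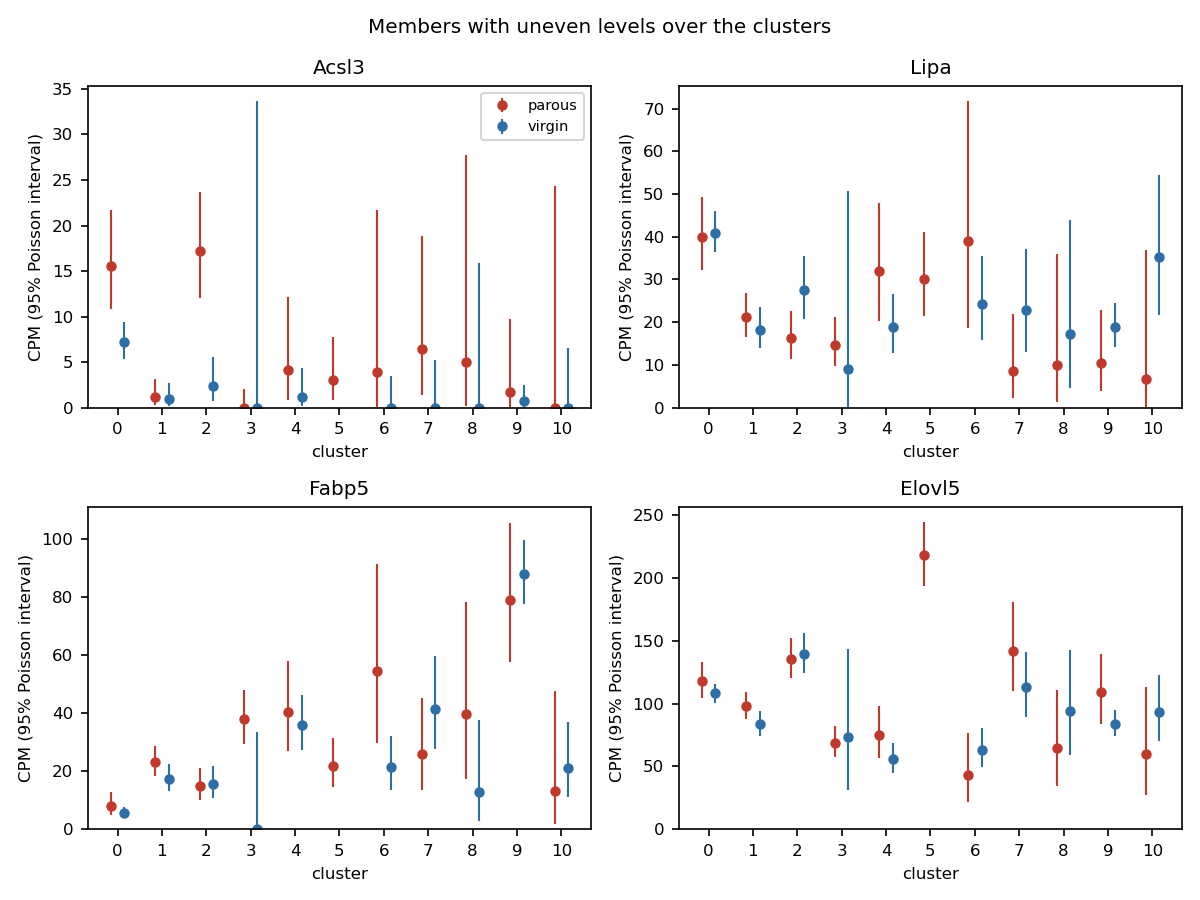
CPM (y axes) of Acsl3, Lipa, Fabp5 and Elovl5 in the 11 clusters (x axes) for the parous (red) and virgin (blue) library, with 95% Poisson intervals, where a cluster had at least 20 cells of that library. Acsl3 stands above the other clusters in 0 and 2, Fabp5 peaks in cycling-like cluster 9 at 79.0 and 88.2 CPM, and Elovl5 peaks at 218 CPM in parous cluster 5.

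In the resident-like cluster 7 the sterol trio was lower in parous cells. Summed, Srebf2, Hmgcs1 and Sqle came to 88.2 CPM (parous) and 153 CPM (virgin) in that cluster. All 3 were past 1.5-fold, as were 22.0% of all genes there in that direction: Srebf2 at 51.6 and 88.8 CPM (-0.76, -1.53 to -0.08), Hmgcs1 at 28.0 and 47.2 CPM (-0.72, -1.81 to 0.21) and Sqle at 8.602 and 17.2 CPM (-0.89, -3.09 to 0.72). The counts are small, at 24, 13 and 4 parous UMIs, and the Srebf2 interval alone excludes 0. That interval includes the median of all genes in this cluster (-0.10). Of 21 other sterol synthesis and uptake genes measured there, 6 were lower and 2 higher, against 22.0% and 12.9% of all genes. In cluster 0 the trio did not show this gap, with Hmgcs1 at 22.7 and 15.8 CPM (0.53, 0.02 to 1.01).

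The promoters of the first 2 of these genes are shown because both hold the letters CACCCCA of a sterol regulatory element. Each is the 250 bases before the RefSeq start (GRCm38.p6), 5′ to 3′ on the gene's strand: Hmgcs1 at chr13:119690101-119690350 (plus) and Srebf2 at chr15:82147019-82147268 (plus). Capitals mark CACCCCA and the CCAAT box on either strand.
Hmgcs1: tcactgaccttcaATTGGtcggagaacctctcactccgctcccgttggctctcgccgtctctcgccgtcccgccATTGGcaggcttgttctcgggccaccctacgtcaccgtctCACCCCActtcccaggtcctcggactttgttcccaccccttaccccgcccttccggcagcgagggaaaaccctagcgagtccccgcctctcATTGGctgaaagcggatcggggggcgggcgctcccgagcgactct
Srebf2: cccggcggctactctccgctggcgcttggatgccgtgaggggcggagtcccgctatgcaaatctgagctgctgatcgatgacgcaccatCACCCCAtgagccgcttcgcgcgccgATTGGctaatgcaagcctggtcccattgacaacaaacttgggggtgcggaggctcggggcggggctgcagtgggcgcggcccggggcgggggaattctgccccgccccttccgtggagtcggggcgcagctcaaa
The 7 letters CACCCCA, a shortening chosen after the sequences were read, are in 6.68% of all 32851 promoters and in 5 of the 36 member promoters in the table. The longer CACCCCAC is in 2.58% of all and, of the 2 shown, in Hmgcs1. Sqle is not among the 36 member promoters, so its promoter was not searched. A match is a description of the sequence, not of binding.

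Further ratios within clusters named by rule were Cpt2 (-1.29), Elovl1 (-0.94) and Elovl6 (0.54) in cluster 0, and Elovl6 (-1.11), Slc25a20 (-1.04), Acsl1 (0.64) and Fabp5 (0.41) in cluster 1. In cluster 2 they were Hadh and Srebf1 (both -0.74) and Ppard (0.73). In cluster 4 they were Plin3 (-0.84) and Srebf1 (-0.78). In cluster 7 they were Acadm (-1.20), Slc25a20 (-0.998), Echs1 (0.51) and Elovl5 (0.33). Intervals of these that exclude 0 were those of Elovl1 in cluster 0, Elovl6 and Slc25a20 in cluster 1 and Hadh in cluster 2. Elovl6 and Acsl1 stood on opposite sides in clusters 0 and 1, Acsl1 being at -0.44 in cluster 0; these differences between clusters were not tested.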

How the data were processed

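The authors deposited raw UMI counts per gene and barcode, 1 matrix per library. The file headers name Cell Ranger 7.0.0, and the submitters' processing notes name mm10, R 4.4.2 and Seurat. The sources used here do not give cell calling settings or strand use. The members and lists were chosen with earlier results of these data known.

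Barcodes with at least 500 genes, 1000 UMIs, under 10% mitochondrial UMIs and a Cd3 UMI were kept. Scrublet marked 2 parous and 11 virgin cells (0.0662% and 0.438%), too few for a working caller, and no cell was removed for it. Virgin UMIs were thinned to equal medians for clustering in scanpy 1.11.5 (2000 variable genes, 30 components, 15 neighbours, Leiden by leidenalg 0.10.2 at resolution 0.8), without lipid, receptor, immunoglobulin, ribosomal and mitochondrial genes. A cluster took a name from at least 3 fixed markers 2-fold above other cells and seen in 10% of its cells. It took none where another marker list held more of its 10 leading genes. The cluster left out (26 parous and 9 virgin cells) had 10 macrophage or dendritic markers, but Krt8, Ltf and Krt7 led it.

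Ratios and intervals were computed with scipy 1.17.1 and tested on simulated counts. Values are given in full for members with at least 30 UMIs that were 1.5-fold apart and for a fixed set of 18 members, for the 4 largest and 4 smallest ratios of the other pathway genes, and within a cluster for the 3 largest and 3 smallest ratios with at least 20 UMIs. All other members were counted and many are also given. Positions come from GENCODE release M21 (GRCm38) and promoters from RefSeq (GRCm38.p6), where 36 of 46 members matched. Alternatives changed scaling, thinning, cell filter, cluster mix, resolution and the UMI minimum.

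In the cells used, markers of other cell types summed, parous and virgin, to 46.1 and 52.2 CPM for macrophages or dendritic cells (12 and 12 of 13 detected), 20.2 and 36.8 CPM for endothelium (4 and 3 of 8 detected), 13.8 and 4.88 CPM for mammary epithelium (6 and 2 of 10 detected), 7.55 and 11.7 CPM for B cells (1 and 4 of 5 detected). They came to 0.831 and 0.302 CPM for fibroblasts (5 and 2 of 7 detected), 0.604 and 0.855 CPM for erythroid cells (5 and 2 of 5 detected), 59.7 and 74.5 CPM for CD4 T cells (5 and 5 of 5 detected) and 3.63 and 1.31 CPM for gamma-delta T cells (3 and 2 of 3 detected).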

Additional observations from a re-analysis of the deposited data

Results flagged for a closer look

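Fasn and Lipa differed between parous and virgin cells in opposite directions in different clusters. Fasn had a log2 ratio of 0.95 in the Gzmk or exhausted-like cluster 4 (29.2 CPM from 21 parous UMIs, 15.2 CPM from 25 virgin UMIs) and of -0.95 in the resident-like cluster 7 (19.4 and 38.6 CPM, 9 and 27 UMIs). Lipa had 0.77 in cluster 4 (32.0 and 18.8 CPM), -0.75 in the NK or innate-like T-like cluster 2 (16.2 and 27.4 CPM) and -1.29 in cluster 7 (8.602 and 22.9 CPM, 4 and 16 UMIs). These differences between clusters were not tested, and each rests on few UMIs.

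Signal of lipid genes also appeared outside the cells used. Fabp4 was at 56.7 CPM (69 UMIs) in the 1908 parous barcodes below the filter and at 1938 CPM (24 UMIs) in the 15 virgin ones, where 6.67% of the barcodes, which is 1 of them, had a UMI. Scd1, at 0 in all cells used, was at 99.8 CPM (17 UMIs) in the 26 parous cells of the excluded cluster and at 42.9 CPM (9 UMIs) in its 9 virgin cells. Dgat2 was at 267 CPM (56 UMIs) in those 9 virgin cells, with 11.1% of them, which is 1 cell, having a UMI, and had 0 UMIs in the 26 parous ones.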

How the results depend on the processing

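The main counts were 5 members higher and 3 lower in the parous library, 7 other pathway genes higher and 6 lower, 5 clusters with Dgat1 at least 1.5-fold higher and 4 with Cpt1a at least 1.5-fold lower. With median-of-ratios scaling, which moves the median log2 ratio of all genes to -0.02, 3 other pathway genes were lower. With cells thinned to 1400 UMIs, 5 members and 10 other genes were lower. Without clusters 3 and 5, 3 members and 3 other genes were higher and 10 other genes lower. With the same mix of clusters, which leaves out cluster 5, 3 members and 3 other genes were higher. Without Scrublet calls and cells of over 3 times the median UMIs, 3 members were higher. Asking for at least 1 UMI gave 5 members lower and 14 other genes higher and 10 lower, and asking for at least 50 UMIs gave 3 members and 3 other genes higher. At clustering resolution 0.5, Cpt1a was lower in 2 of the 4 clusters compared. The causes were not tested, beyond the fewer or more genes counted under the UMI minimums and the cells left out by construction. No value past 1.5-fold changed sign. Of the values near 0, that of Fabp5 kept its sign in 8 of 14 alternatives, Acadl in 9, Acadm and Pparg in 12 and Srebf2 and Hmgcs1 in 13. Of 406 single-gene values (29 genes under 14 alternatives), 377 moved by less than their counting interval and 29 by more. The settings without cluster 8 and without shared barcodes were chosen after seeing the data. No paired analysis was possible because each group has 1 library, and its replicate number is only a name. Depth limits Cd36, Lpl, Vldlr, Scd1, Dgat2, Ppara and Pparg most.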

Other observations

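Hilpda, the lipase inhibitor among the other pathway genes, varied widely over the clusters in both libraries. It was at 273 CPM in parous and 319 CPM in virgin cells of the resident-like cluster 3 (504 and 35 UMIs), and at 31.6 and 31.1 CPM in the naive-like cluster 0. In the 5 clusters compared it was at 98.8 and 69.8 CPM in cluster 1, 66.8 and 44.9 CPM in cluster 2, 94.6 and 57.6 CPM in cluster 4 and 191 and 119 CPM in cluster 7.

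The sterol demethylase Cyp51 was higher in parous cells of clusters 0 (24.9 and 12.7 CPM), 1 (42.4 and 25.0 CPM), 2 (17.6 and 10.4 CPM) and 4 (37.6 and 21.2 CPM), while in cluster 7 (71.0 and 70.1 CPM) and cycling-like cluster 9 (54.4 and 54.9 CPM) the levels were nearly equal. These contrasts were not tested.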
